A study of Mus musculus with 12 samples.

Results

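The 10 genes described here are markers and regulators of blood vessel endothelium: the apelin receptor Aplnr and its ligand Apln, the VEGF receptors Kdr and Flt1, the angiopoietin receptor Tek and its ligand Angpt2, the endothelial junction genes Pecam1 and Cdh5, and the tip cell genes Esm1 and Dll4. They were taken from the deposited table by gene symbol, with no threshold on values, and all 10 were found among its 16335 genes. The members and the gene lists below were chosen with earlier results of these data known. Their p-values and counts may therefore not be independent of that choice. RNA was sequenced from tumors of the mouse sarcoma line BVMA01R in female C57BL/6J mice, as 12 libraries. These formed 4 groups of 3 libraries: ADI-PEG20, ADI-PEG20 with chloroquine (ADI-PEG20+CQ), chloroquine alone (CQ) and no treatment (NT). All 4 groups carry the same tumor genotype, Myf5-Cre;p53-/-;Ass1-/-, and all come from this 1 cell line, so no result here separates the effect of these alleles. ADI-PEG20 is a pegylated arginine deiminase that removes arginine from outside cells, and tumors without Ass1 cannot rebuild it; chloroquine blocks lysosomal degradation. The labels give neither dose nor time, nor whether each library is a separate animal, so p-values measure the spread between these libraries, which may in part be technical. Libraries are named by group and replicate number, so that NT 2 is the untreated library labelled replicate 2. Where a tumor is spoken of below, 1 library is meant.

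Blood vessels in tumors sprout under the control of a few ligand and receptor pairs. VEGF-A signals through Kdr, while Flt1 binds the same ligand tightly and signals weakly; the cell that leads a sprout carries Dll4, which activates Notch in its neighbours and restrains them from leading, and it is known for high Esm1, Angpt2 and Apln. Apelin from sprouting cells acts on Aplnr, which is most abundant in veins and in growing vessels, and Tek is the receptor that angiopoietins activate or, in the case of Angpt2 in many settings, block. Pecam1 and Cdh5 hold endothelial cells to each other and are present in endothelium of nearly all vessels. In a bulk tumor sample, fewer endothelial cells and less of an RNA per endothelial cell cannot be told apart.

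The recovered reads ranged from 15501998 to 28410940 per library, and 1 read was worth 0.0320 to 0.0794 CPM, the share of a library's reads scaled to a common total. Levels are given as the deposited log2 CPM, and differences between groups are differences in that scale. ADI-PEG20 1 and NT 2 stood apart from the other libraries: the noncoding RNA Gm26917 took 22.8% of the reads of ADI-PEG20 1 and 16.4% of those of NT 2, and their median correlations with the other libraries across genes were 0.920 and 0.934. ADI-PEG20 1 also held 120 genes with no read, against 7 to 43 in the remaining 11. For several results that rest on either library, values without it are given as well. Ratios within a tumor and counts over gene lists are given with all 12 libraries only.

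All 10 genes were read in every library, with the fewest reads for Esm1 (27 in ADI-PEG20+CQ 3) and the most for Cdh5 (4485 in ADI-PEG20 3). Per kilobase of exon, Cdh5 was the most abundant at a mean of 34.1 CPM per kb over 12 libraries. Apln (13.3), Pecam1 (13.2), Aplnr (9.05), Kdr (7.05), Dll4 (6.19), Angpt2 (5.94), Flt1 (5.94) and Tek (3.80) followed in CPM per kb, and Esm1 was lowest at 1.61. The presence of endothelium was checked against 30 other pan-endothelial genes, among them Tie1, Erg, Cldn5 and Egfl7: all 30 were in the table and none was at 0 reads in any library. Their summed level spanned 905 to 1411 CPM in ADI-PEG20 tumors, 1036 to 1118 CPM in ADI-PEG20+CQ tumors, 849 to 1135 CPM in CQ tumors and 747 to 1304 CPM in untreated tumors.

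Across the 3 comparisons with no treatment, the apelin receptor Aplnr was the member with the smallest unadjusted p, higher in the mean of every treated group. Esm1 had differences of larger size with ADI-PEG20 and ADI-PEG20+CQ, -1.24 and -1.43, with an SE of 0.67. The junction genes stayed within 0.26 of untreated tumors on the log2 scale. No member passed an adjusted p of 0.05 in any of 8 contrasts fitted with limma over 16335 genes. Nor did any other gene, so that the share called was 0% in each. Voom with library weights, the alternative that gave most such calls with all 12 libraries in the fit, called 47 genes for ADI-PEG20 over both chloroquine states, 1 for ADI-PEG20+CQ against chloroquine and 0 in the other 6 contrasts, with no member among them. At an unadjusted p under 0.05, 1 of 10 members was called with ADI-PEG20 (Aplnr), against 8.31% of all genes. The same count was 1 with ADI-PEG20+CQ (Aplnr again), against 8.65% of all genes, and 1 with chloroquine (Aplnr), against 3.4%. A count of 1 in 10 is close to these background shares and is no result about the list. The 3 comparisons share the same untreated libraries and are not independent of each other. The median difference of the 10 members was -0.08 with ADI-PEG20, -0.03 with ADI-PEG20+CQ and -0.25 with chloroquine, beside -0.01, 0.01 and 0.00 for all genes.

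**Figure D1:**
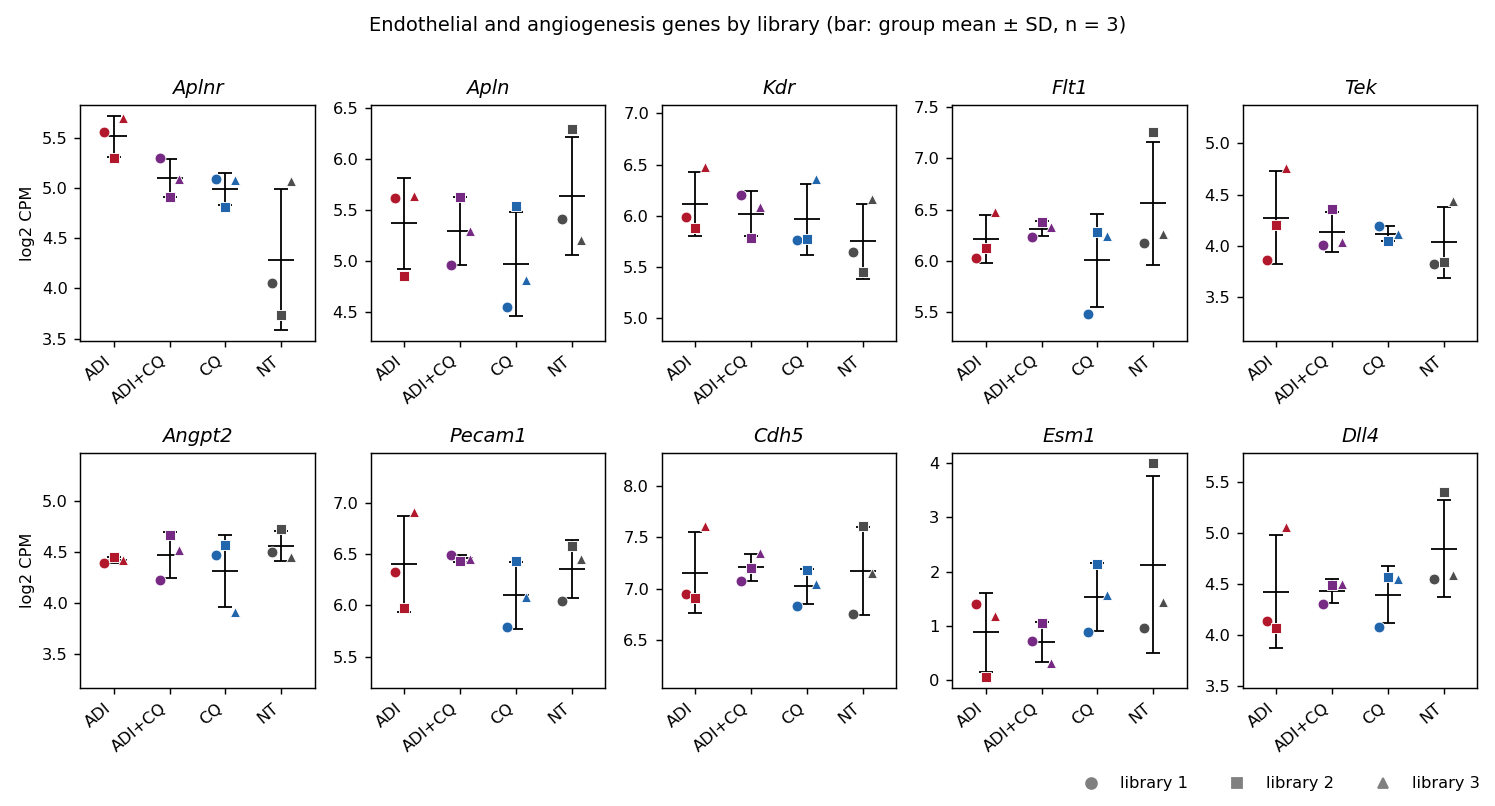
Level in log2 CPM (y axis) of each gene in each of the 12 libraries, by group (x axis; ADI stands for ADI-PEG20); symbols mark the replicate number, and the bars show the group mean ± SD (n = 3). The 3 ADI-PEG20 values of Aplnr, 5.30 to 5.70, lie above all 3 untreated values, 3.73 to 5.08, and NT 2 lies far above the other libraries for Flt1 and Esm1. The y axes differ between genes.

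A single untreated library held the extremes of most members. NT 2 had the highest level of 6 of the 10 genes (Apln, Flt1, Cdh5, Angpt2, Esm1 and Dll4) and the lowest of 2 (Aplnr and Kdr). ADI-PEG20 3 had the highest level of the other 4 (Aplnr, Kdr, Pecam1 and Tek), and among the lowest values 3 were in CQ 1 (Apln, Flt1 and Pecam1). Untreated tumors were the group with the widest spread for 6 members: the SD of log2 CPM in NT was 0.70 for Aplnr, 0.58 for Apln, 0.37 for Kdr, 0.60 for Flt1, 0.43 for Cdh5 and 1.63 for Esm1. The mean of the 30 pan-endothelial genes in NT 2, 4.66 in log2 CPM, was below that of ADI-PEG20 3 (4.86). It was above those of NT 1 (3.95) and NT 3 (4.45), and every remaining library was at 4.65 or lower. The part of endothelial content in the NT 2 levels was not tested. Vegfa, the main ligand of Kdr and Flt1, was also highest in NT 2, at 9.10 in log2 CPM against 6.97 to 8.59 in the other 11 libraries, and so was Adm, a hypoxia-responsive peptide, at 5.10 against 0.95 to 3.84.

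**Figure D2:**
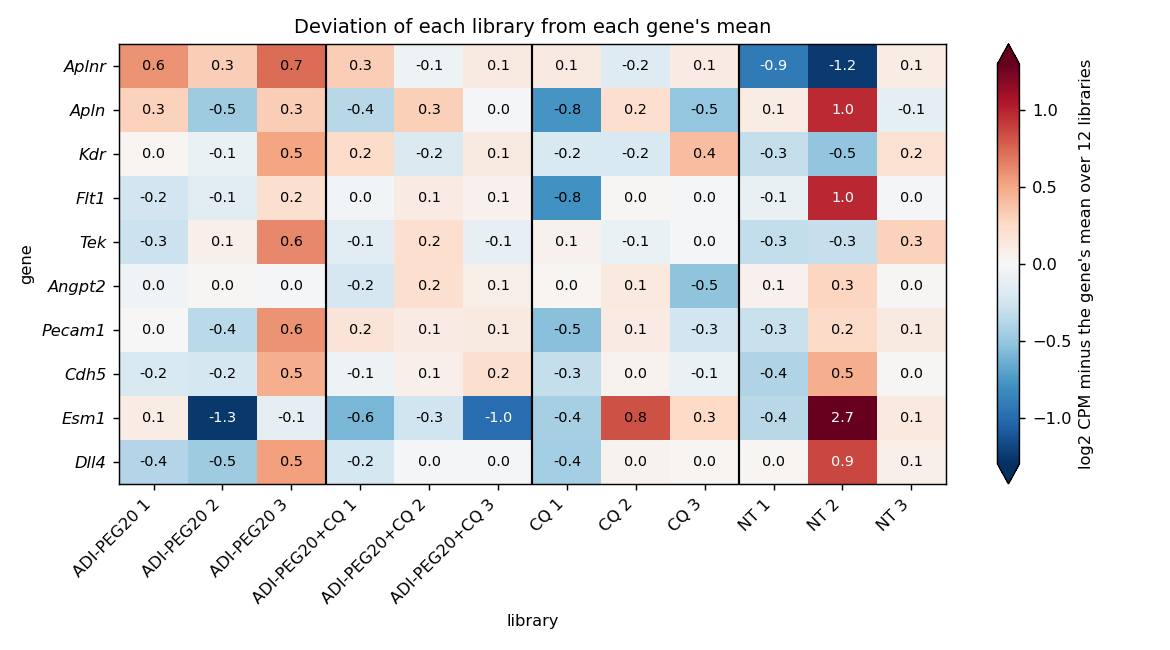
Deviation of each library (columns, grouped by treatment) from each gene's mean over 12 libraries (rows), in log2 CPM; red is above and blue is below the mean, and the colour scale ends at 1.3. In the NT 2 column Esm1, Apln, Flt1 and Dll4 stand above their means while Aplnr and Kdr stand below theirs.

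The promoters of the 4 genes that were far above their means together in NT 2 are shown so that their shared letters can be seen. Each is the 300 bases from 250 before to 50 after the start in RefSeq (GRCm38.p6), read 5′ to 3′ on the gene's own strand. The windows are chr5:147725962-147726261 on the minus strand for Flt1, chr2:119325534-119325833 on the plus strand for Dll4, chrX:48034804-48035103 on the minus strand for Apln and chr13:113209409-113209708 on the plus strand for Esm1. Capitals mark GGAA or its complement TTCC, the core letters bound by ETS factors, a family that endothelial genes are known to rely on.
Flt1: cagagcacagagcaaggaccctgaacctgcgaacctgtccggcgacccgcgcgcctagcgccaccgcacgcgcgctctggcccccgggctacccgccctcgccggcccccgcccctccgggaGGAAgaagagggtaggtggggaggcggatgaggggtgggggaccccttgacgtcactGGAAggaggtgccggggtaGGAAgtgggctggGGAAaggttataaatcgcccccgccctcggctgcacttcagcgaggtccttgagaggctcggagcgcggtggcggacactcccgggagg
Dll4: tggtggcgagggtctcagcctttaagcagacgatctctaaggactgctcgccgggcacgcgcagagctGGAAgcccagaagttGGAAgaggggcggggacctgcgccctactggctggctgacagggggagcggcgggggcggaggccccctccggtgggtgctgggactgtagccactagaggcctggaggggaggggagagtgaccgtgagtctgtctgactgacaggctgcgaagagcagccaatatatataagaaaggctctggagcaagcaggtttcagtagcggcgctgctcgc
Apln: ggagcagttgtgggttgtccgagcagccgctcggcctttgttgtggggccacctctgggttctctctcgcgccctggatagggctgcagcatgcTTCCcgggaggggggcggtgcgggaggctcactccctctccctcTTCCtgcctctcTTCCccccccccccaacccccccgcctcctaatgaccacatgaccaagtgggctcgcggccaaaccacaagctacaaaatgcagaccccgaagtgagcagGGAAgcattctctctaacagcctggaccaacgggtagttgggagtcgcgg
Esm1: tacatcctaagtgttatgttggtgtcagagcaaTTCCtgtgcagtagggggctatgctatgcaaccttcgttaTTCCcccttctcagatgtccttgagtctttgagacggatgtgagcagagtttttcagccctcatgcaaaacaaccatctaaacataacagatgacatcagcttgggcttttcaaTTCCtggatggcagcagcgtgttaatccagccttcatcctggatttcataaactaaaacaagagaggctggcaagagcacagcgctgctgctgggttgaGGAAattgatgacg
The core occurs 4 times in the windows of Flt1, Apln and Esm1 and 2 times in that of Dll4. It is no distinction, since 95.98% of 32851 promoter windows of that length hold it at least once and the median is 3. The hypoxia core ACGTG (or CACGT), held by 19.62% of all windows, was found in none of these 4. Among the 6 members with an entry (these 4, Kdr and Tek), TGGGAA (or TTCCCA), the letters bound by the Notch effector RBPJ, which overlap the ETS core and occur in 25.56% of windows, were found in Kdr alone. Such matches describe letters in a window and not binding.

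Aplnr, the G protein-coupled receptor for apelin (ENSMUSG00000044338, chromosome 2, 85136225 to 85139923, plus strand, GRCm38), had log2 CPM levels of 5.56, 5.30 and 5.70 in ADI-PEG20 tumors. In ADI-PEG20+CQ tumors it had 5.30, 4.91 and 5.10, in CQ tumors 5.09, 4.81 and 5.08, and in untreated tumors 4.06, 3.73 and 5.08. All 3 ADI-PEG20 values lay above all 3 untreated values, whereas NT 3 reached into the range of the other treated groups. On the linear scale the means were 46.1 ± 6.36 CPM with ADI-PEG20, 34.5 ± 4.66 with ADI-PEG20+CQ, 32.0 ± 3.44 with chloroquine and 21.2 ± 10.98 CPM without treatment (SD, n = 3 each).

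The difference from untreated tumors was 1.23 with ADI-PEG20 (SE 0.27, unadjusted p = 0.0006, limma adjusted p = 0.48). It was 0.81 with ADI-PEG20+CQ (SE 0.27, unadjusted p = 0.011, adjusted p = 0.46) and 0.71 with chloroquine (SE 0.27, unadjusted p = 0.023, adjusted p = 0.999). None of these passed the adjusted threshold. Of all genes, 10.1% had ADI-PEG20 and untreated values that did not overlap, and 2 of the 10 members did, Aplnr and Angpt2. In the authors' deposited table the corresponding fold changes of Aplnr were 1.09, 0.69 and 0.56 in log2, with p-values of 0.0016, 0.017 and 0.051.

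How far Aplnr stood from untreated tumors depended on which of them were counted. Without NT 3, the untreated library with the most Aplnr, the ADI-PEG20 difference was 1.62 (limma adjusted p = 0.039), the only setting in which a member passed in a comparison with no treatment. ADI-PEG20+CQ then gave 1.21 (adjusted p = 0.054) and chloroquine 1.10. Without NT 2, the differences were 0.95 with ADI-PEG20 (adjusted p = 0.47), 0.54 with ADI-PEG20+CQ and 0.43 with chloroquine. Leaving out ADI-PEG20 1 gave 1.21 for ADI-PEG20, and leaving out both NT 2 and ADI-PEG20 1 gave 0.93. With the mean level of the 30 pan-endothelial genes as a term in the fit, the ADI-PEG20 difference was 1.19 (adjusted p = 0.79). It was 0.80 for ADI-PEG20+CQ and 0.71 for chloroquine in that fit, which was added after seeing the data. The part of endothelial content in the Aplnr differences was not tested. Relative to the mean of those 30 genes, Aplnr stood at 0.98 ± 0.18 in ADI-PEG20 tumors, 0.70 ± 0.19 in ADI-PEG20+CQ tumors, 0.66 ± 0.28 in CQ tumors and -0.07 ± 0.79 in untreated tumors (log2 difference within a library, SD, n = 3 each).

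**Figure D3:**
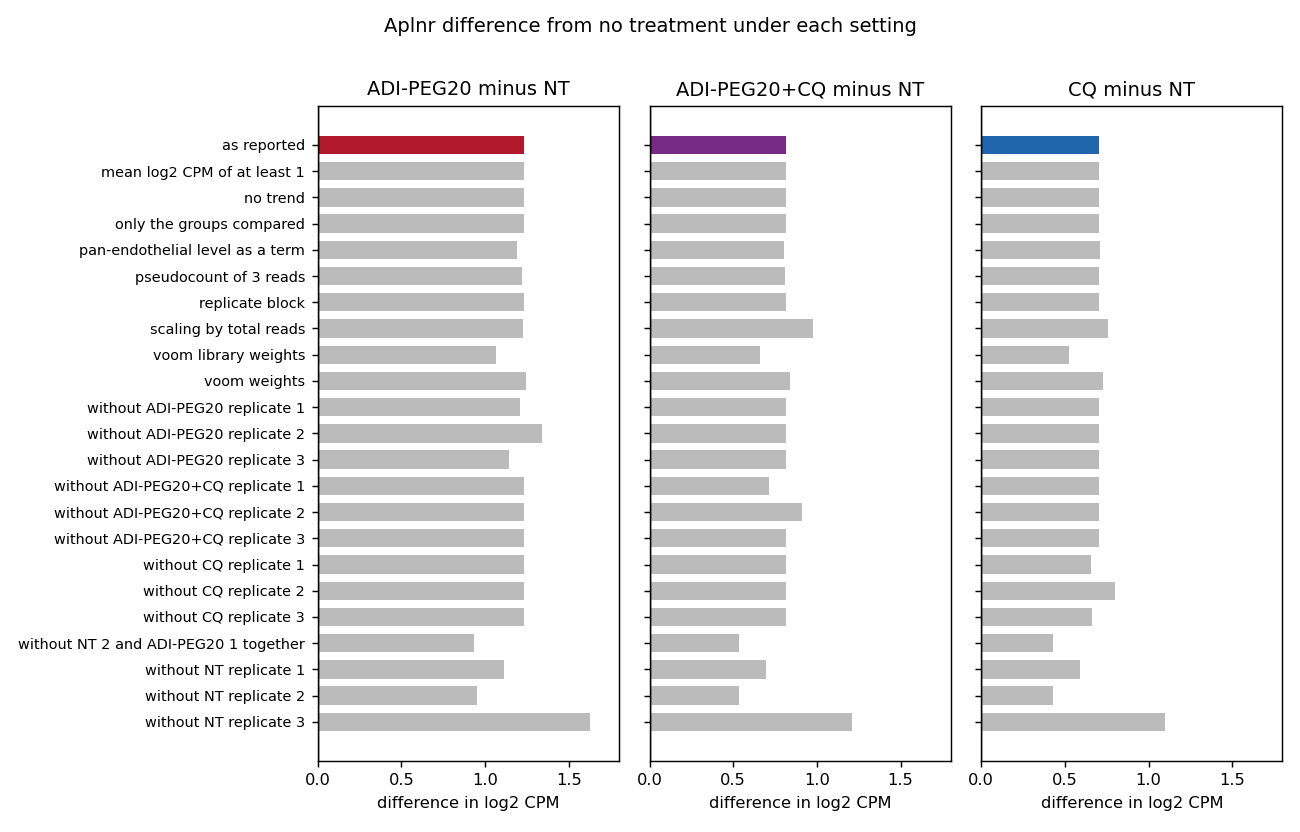
Difference of Aplnr from untreated tumors in log2 CPM (x axes) for ADI-PEG20, ADI-PEG20+CQ and chloroquine, as reported (coloured bar) and under each alternative fit or with each library left out (grey bars). Every bar is above 0; the shortest leave out NT 2 and the longest leave out NT 3.

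Apln, the ligand of Aplnr (ENSMUSG00000037010, chromosome X, 48025146 to 48034853, minus strand), did not follow its receptor. Its levels were 5.61, 4.86 and 5.64 in ADI-PEG20 tumors, 4.96, 5.63 and 5.30 in ADI-PEG20+CQ tumors, 4.56, 5.54 and 4.82 in CQ tumors, and 5.41, 6.29 and 5.20 in untreated tumors. All groups overlapped, and NT 2 was highest. The differences from untreated tumors were -0.27, -0.34 and -0.67 (SE 0.32 each), the last with chloroquine at an unadjusted p of 0.060 and an adjusted p of 0.999. Without NT 2 they were 0.06, -0.014 and -0.34. Apela, a second ligand of the receptor, was scarce, from -3.96 to 1.2 in log2 CPM, and its differences of -0.90, -1.25 and -1.21 were about as large as their SE of 1.14.

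The balance of receptor to ligand within a tumor, log2 Aplnr minus log2 Apln, averaged 0.15 ± 0.26 in ADI-PEG20 tumors, -0.19 ± 0.53 in ADI-PEG20+CQ tumors, 0.02 ± 0.67 in CQ tumors and -1.35 ± 1.21 in untreated tumors (SD, n = 3 each). The untreated values were -1.36, -2.56 and -0.13, of which NT 3 alone lay within the range of the treated libraries. The ADI-PEG20 minus untreated difference of 1.495 gave p = 0.1 in a two-sided exact permutation test, the smallest p that 3 against 3 libraries allow. The same exact test gave p = 0.3 for ADI-PEG20+CQ and p = 0.2 for chloroquine.

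Kdr, the receptor that carries most VEGF-A signalling in endothelium (ENSMUSG00000062960, chromosome 5, 75932827 to 75978458, minus strand), had levels of 5.99, 5.88 and 6.47 in ADI-PEG20 tumors and 6.203, 5.78 and 6.08 in ADI-PEG20+CQ tumors. CQ tumors had 5.76, 5.77 and 6.36, and untreated tumors 5.65, 5.45 and 6.16. The untreated mean of 5.75 ± 0.37 was the lowest of the 4, but every group overlapped every other. The differences from untreated tumors were 0.36 with ADI-PEG20, 0.27 with ADI-PEG20+CQ and 0.21 with chloroquine (SE 0.23 each), and none reached an unadjusted p of 0.05 in the fit of 4 group means.

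Flt1, which binds VEGF-A as a decoy (ENSMUSG00000029648, chromosome 5, 147561604 to 147726011, minus strand), ran the other way in group means. Its levels were 6.03, 6.13 and 6.48 with ADI-PEG20, 6.23, 6.37 and 6.33 with ADI-PEG20+CQ, 5.48, 6.28 and 6.24 with chloroquine, and 6.17, 7.26 and 6.26 without treatment. NT 2 at 7.26 and CQ 1 at 5.48 lay apart from the remaining 10 libraries, which spanned 6.03 to 6.48. The differences from untreated tumors were -0.35, -0.25 and -0.56 (SE 0.27 each), the last at an unadjusted p of 0.062 with chloroquine. Without NT 2 the differences were -0.003 with ADI-PEG20, 0.10 with ADI-PEG20+CQ and -0.21 with chloroquine. Within a tumor, log2 Flt1 minus log2 Kdr was 0.10 ± 0.13 in ADI-PEG20 tumors, 0.29 ± 0.28 in ADI-PEG20+CQ tumors, 0.04 ± 0.42 in CQ tumors and 0.81 ± 0.89 in untreated tumors. NT 2 stood at 1.81, against 0.52 in NT 1 and 0.098 in NT 3. The exact permutation p-values against untreated tumors were 0.2, 0.6 and 0.2.

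Of 8 other VEGF ligands and receptors in the table, none was called against untreated tumors at an unadjusted p under 0.05 in any treatment. Averaged over both chloroquine states, which sets the 6 ADI-PEG20 libraries against the 6 without it, the coreceptors Nrp1 (0.30, SE 0.13, adjusted p = 0.49) and Nrp2 (0.35, SE 0.16, adjusted p = 0.50) were called at that unadjusted level. Neither was called without NT 2, where Nrp1 was 0.18 (limma unadjusted p = 0.11) and Nrp2 0.36 (limma unadjusted p = 0.063). For Vegfa itself the differences from untreated tumors were -0.36 with ADI-PEG20, -0.13 with ADI-PEG20+CQ and -0.57 with chloroquine (SE 0.36 each); without NT 2 they were 0.07, 0.30 and -0.14. Pgf, a ligand of Flt1, differed by -0.87, -0.24 and -1.10 (SE 0.67 each), and by -0.47, 0.16 and -0.70 without NT 2.

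Tek, the tyrosine kinase receptor of the angiopoietins (ENSMUSG00000006386, chromosome 4, 94739289 to 94874976, plus strand), had levels of 3.86, 4.21 and 4.76 in ADI-PEG20 tumors and 4.01, 4.36 and 4.04 in ADI-PEG20+CQ tumors. It had 4.19, 4.05 and 4.11 in CQ tumors and 3.82, 3.84 and 4.44 in untreated tumors. The group means, 4.28, 4.13, 4.12 and 4.03, differed by less than the SD within ADI-PEG20 (0.46) or untreated tumors (0.35). The largest difference from untreated tumors was 0.24 (SE 0.24), with ADI-PEG20.

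Angpt2, the angiopoietin released by activated endothelium (ENSMUSG00000031465, chromosome 8, 18690263 to 18741562, minus strand), was the steadiest member, with an SD of 0.21 over 12 libraries. Its levels were 4.40, 4.46 and 4.42 with ADI-PEG20, 4.23, 4.66 and 4.52 with ADI-PEG20+CQ, 4.47, 4.57 and 3.92 with chloroquine, and 4.50, 4.73 and 4.46 without treatment. The ADI-PEG20 values lay below all untreated values, though ADI-PEG20 2 and NT 3 both round to 4.46, and the difference of -0.14 (SE 0.19, adjusted p = 0.85) was within the spread. Of the 6 other genes of this pathway on the list, 2 were called higher with ADI-PEG20 at an unadjusted p under 0.05 and 1 lower. These were Foxo1, a transcription factor that Tek signalling inactivates (0.81, SE 0.27, adjusted p = 0.52), the phosphatase gene Ptprb that restrains Tek (0.46, SE 0.18, adjusted p = 0.54) and the ligand Angpt4 (-0.79, SE 0.27, adjusted p = 0.52). Angpt1, the activating ligand, differed by 0.64, 0.55 and 0.48 with ADI-PEG20, ADI-PEG20+CQ and chloroquine (SE 0.35 each), and by 0.24, 0.15 and 0.08 without NT 2.

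Pecam1, the adhesion molecule CD31 (ENSMUSG00000020717, chromosome 11, 106654217 to 106750628, minus strand), had levels of 6.33, 5.97 and 6.91 in ADI-PEG20 tumors, 6.49, 6.43 and 6.45 in ADI-PEG20+CQ tumors, 5.78, 6.43 and 6.08 in CQ tumors, and 6.04, 6.58 and 6.45 in untreated tumors. Cdh5, the cadherin of endothelial junctions (ENSMUSG00000031871, chromosome 8, 104101625 to 104144511, plus strand), had 6.94, 6.91 and 7.61 with ADI-PEG20, 7.07, 7.20 and 7.34 with ADI-PEG20+CQ, 6.83, 7.18 and 7.05 with chloroquine, and 6.75, 7.61 and 7.16 without treatment. For both genes all groups overlapped. Their differences from untreated tumors ran from -0.26 to 0.10, all close to or below the SE (0.23 for Pecam1 and 0.22 for Cdh5). The confidence limits of the authors' deposited table for Cdh5 with ADI-PEG20, -0.40 to 0.58 in log2, show which changes these 3 libraries a group cannot separate from none.

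Esm1, a secreted proteoglycan of tip cells that VEGF induces (ENSMUSG00000042379, chromosome 13, 113209659 to 113218098, plus strand), was the scarcest and most variable member. It had 2.62, 1.02 and 2.26 CPM in ADI-PEG20 tumors, 1.63, 2.06 and 1.23 CPM in ADI-PEG20+CQ tumors, 1.82, 4.38 and 2.94 CPM in CQ tumors, and 1.92, 15.9 and 2.68 CPM in untreated tumors. These levels rest on 27 to 94 reads a library, except for 259 reads in NT 2. The difference from untreated tumors was -1.24 with ADI-PEG20 (SE 0.67, unadjusted p = 0.087), -1.43 with ADI-PEG20+CQ (SE 0.67, unadjusted p = 0.053) and -0.60 with chloroquine (SE 0.67). Without NT 2 these were -0.31, -0.50 and 0.33. Over both chloroquine states the ADI-PEG20 difference was -1.04 (SE 0.48, unadjusted p = 0.048, adjusted p = 0.51), and -0.57 without NT 2.

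Dll4, the endothelial Notch ligand (ENSMUSG00000027314, chromosome 2, 119325784 to 119335962, plus strand), had levels of 4.14, 4.07 and 5.06 in ADI-PEG20 tumors, 4.30, 4.49 and 4.50 in ADI-PEG20+CQ tumors, 4.08, 4.57 and 4.55 in CQ tumors, and 4.55, 5.40 and 4.59 in untreated tumors. The ADI-PEG20+CQ values all lay below the untreated ones, as they did for 1 of 10 members against 15.4% of all genes in either direction; chloroquine gave 0 of 10 members without overlap, against 7.41%. The differences from untreated tumors were close to each other, -0.42, -0.41 and -0.45 with ADI-PEG20, ADI-PEG20+CQ and chloroquine (SE 0.28 each, unadjusted p 0.14 to 0.17). Without NT 2 they were -0.15, -0.14 and -0.17. Set against Cdh5 of the same tumor, log2 Dll4 minus log2 Cdh5 was -2.73 ± 0.16 with ADI-PEG20, -2.78 ± 0.07 with ADI-PEG20+CQ, -2.62 ± 0.13 with chloroquine and -2.33 ± 0.21 without treatment. The exact permutation p-values against untreated tumors were 0.2, 0.1 and 0.2, with 0.1 the smallest possible.

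**Figure D4:**
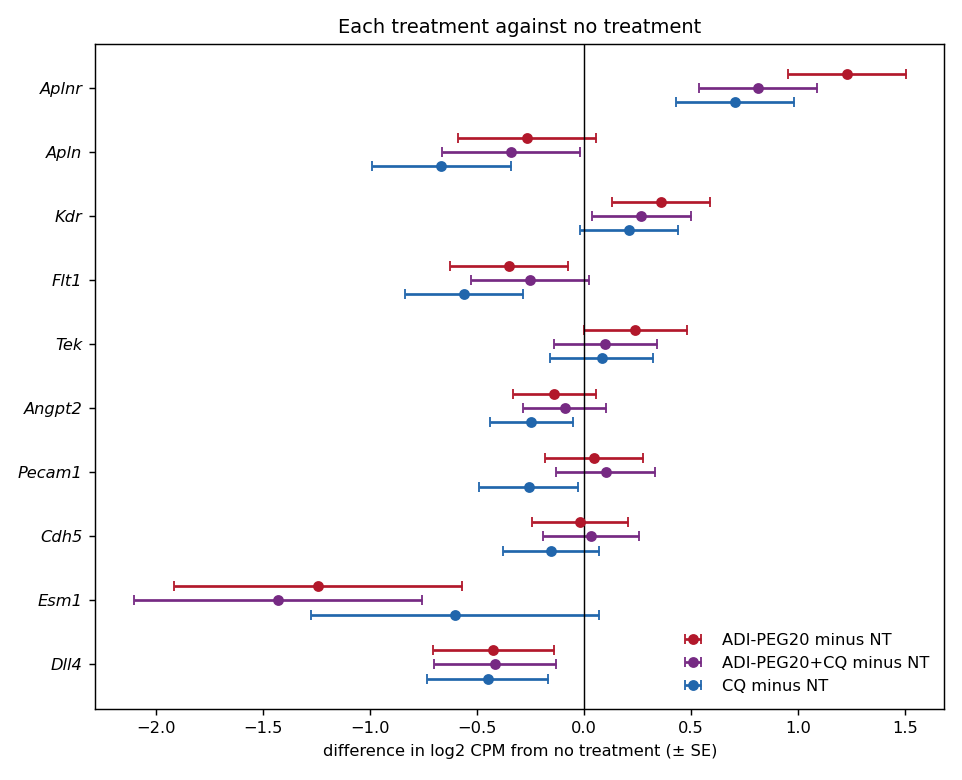
Difference in log2 CPM from untreated tumors (x axis; points with bars of ± SE from limma over 12 libraries) for each gene (y axis), with ADI-PEG20, ADI-PEG20+CQ and chloroquine. Aplnr lies between 0.71 and 1.23 in all 3 treatments, and Dll4 between -0.45 and -0.41; no adjusted p was under 0.05.

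Of 13 other Notch ligands, receptors and targets, Lfng, a glycosyltransferase that tunes Notch receptors, was higher with ADI-PEG20 (0.76, SE 0.24, unadjusted p = 0.008, adjusted p = 0.52). With ADI-PEG20+CQ the ligands Dll1 (-0.62, SE 0.19, adjusted p = 0.42) and Jag2 (-0.71, SE 0.29, adjusted p = 0.54) were lower at an unadjusted p under 0.05, and with chloroquine none was called. Notch1 and Notch4, the receptors of endothelium, differed from untreated tumors by at most 0.26 with all 12 libraries. Without NT 2 the ADI-PEG20 difference was 0.58 for Notch4 (SE 0.32, limma unadjusted p = 0.089) and 0.29 for Notch1 (SE 0.21). With ADI-PEG20+CQ and chloroquine, Notch4 was then 0.12 and 0.18, and Notch1 -0.03 and 0.09. Over both chloroquine states, the targets Hey2 (-0.82, SE 0.35) and Heyl (0.60, SE 0.27) were called in opposite directions at that level.

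With the combination set against each single drug, no member was called at an unadjusted p under 0.05. ADI-PEG20 alone was not tested against chloroquine alone. ADI-PEG20+CQ against ADI-PEG20 gave 0 of 10 members, where 3.42% of all genes were called, and ADI-PEG20+CQ against chloroquine gave 0 of 10, where 6.78% were called. Aplnr stood at 5.10 ± 0.19 in ADI-PEG20+CQ tumors and 5.52 ± 0.20 in ADI-PEG20 tumors, a difference of -0.42 (SE 0.27, unadjusted p = 0.15). The effect of ADI-PEG20 on Aplnr was 0.11 with chloroquine present and 1.23 without it, an interaction of -1.12 (SE 0.39, unadjusted p = 0.013, adjusted p = 0.82); it was the 1 of 10 members called in that contrast, against 4.26% of all genes. Averaged over chloroquine states, ADI-PEG20 gave 2 of 10 members called, Aplnr (0.67, SE 0.19, unadjusted p = 0.004, adjusted p = 0.27) and Esm1, against 9.8% of all genes. Chloroquine averaged over ADI-PEG20 states gave 0 of 10, against 2.23%.

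Levels of some members were correlated across the 12 libraries, over points that share their library, depth and scaling. Of 45 pairs, 30 had a positive Pearson r, the median was 0.33, and 8 pairs, 7 of them positive, had a permutation p under 0.05 after adjustment over the 45. Flt1 and Dll4 were closest by Pearson r (r = 0.87, permutation p = 6e-05, adjusted p = 0.0027; Spearman rho = 0.76, p = 0.0058, adjusted p = 0.064). Without the 2 libraries farthest from the median of Flt1, CQ 1 and NT 2, r was 0.83 over 10 libraries. Dll4 also ran with Cdh5 (r = 0.83, permutation p = 0.001, adjusted p = 0.011), but r was 0.50 without ADI-PEG20 3 and NT 2. Its r with Apln was 0.75 (permutation p = 0.0048, adjusted p = 0.031), but 0.41 without CQ 1 and NT 2. By Spearman rho neither of these Dll4 pairs passed adjustment (permutation adjusted p = 0.11 and 0.16). By Spearman rho Flt1 and Cdh5 were closest (rho = 0.94, p = 2e-05, adjusted p = 0.0009; r = 0.78, permutation p = 0.00043, adjusted p = 0.0065; r = 0.86 without CQ 1 and NT 2). Pecam1 and Cdh5 gave r = 0.85 (permutation p = 0.00031, adjusted p = 0.0065; rho = 0.87, p = 0.00052, adjusted p = 0.012), and 0.78 without ADI-PEG20 3 and CQ 1. For Aplnr and Kdr r was 0.77 (permutation p = 0.0025, adjusted p = 0.019; rho = 0.71, p = 0.013, adjusted p = 0.079), and 0.56 without NT 1 and NT 2. Apln and Flt1 gave r = 0.81 (permutation p = 0.0024, adjusted p = 0.019; rho = 0.69, p = 0.016, adjusted p = 0.079), but 0.30 without CQ 1 and NT 2, so that relation rests on those libraries. The 1 negative pair was Kdr and Angpt2 (r = -0.71, permutation p = 0.0068, adjusted p = 0.038; rho = -0.75, p = 0.0071, adjusted p = 0.064), with r = -0.77 without ADI-PEG20 3 and NT 2.

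The genes whose levels ran most like Aplnr over the 12 libraries, of 13256 compared, were Clec4a1 (r = 0.94), Fcgr1, Fam53b, Man2b1, Nr2f2, Gbp2b, Gnai1 and Tbxa2r (0.91). Without NT 2 these 8 correlations were 0.83 to 0.92. Nr2f2, a transcription factor of venous endothelium, had a level of 6.43 ± 0.14 in ADI-PEG20 tumors, 6.23 ± 0.15 in ADI-PEG20+CQ tumors, 6.14 ± 0.33 in CQ tumors and 5.84 ± 0.33 in untreated tumors (SD, n = 3 each). Its difference with ADI-PEG20 was 0.60 (SE 0.20, unadjusted p = 0.009, adjusted p = 0.52). Since Nr2f2 is given here for its likeness to Aplnr over these same libraries, that p is not independent of the Aplnr difference. For the mean of Pecam1, Cdh5, Tek, Kdr and Flt1, the most alike were Sema6d (r = 0.95), Azin2, Pcdhb20, Nrn1, Arpc2, Asxl1, Gpihbp1 and Pigm (0.85), of which Gpihbp1, the capillary lipase anchor, is the 1 pan-endothelial gene.

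Wider endothelial lists gave few calls. Of the 30 pan-endothelial genes, 22 were higher and 8 lower with ADI-PEG20 (median 0.22), with Eng (0.56, SE 0.19, adjusted p = 0.52), a TGF-beta coreceptor, and Ptprb, which is also on the angiopoietin list, called at an unadjusted p under 0.05. With ADI-PEG20+CQ 18 were higher (median 0.07; 1 called, Fli1), and with chloroquine 13 were higher (median -0.02; none called). Of 15 tip cell and sprouting genes, the basement membrane gene Nid2 was higher with ADI-PEG20 (0.91, SE 0.37) and with ADI-PEG20+CQ (0.88) at that level. Angptl2 was lower in both (-0.35 and -0.61, SE 0.16) and Fscn1, an actin bundler of protrusions, lower with ADI-PEG20+CQ (-0.45, SE 0.19). Of 9 arterial, venous and adhesion genes, Vcam1, the leukocyte adhesion receptor, was higher with ADI-PEG20+CQ (0.85, SE 0.23, adjusted p = 0.39), and Gja4, an arterial gap junction gene, with ADI-PEG20+CQ (0.86) and chloroquine (0.81, SE 0.37).

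Markers of other cells are set beside these values; none of those genes passed the adjusted threshold. All 12 macrophage and monocyte genes were higher with ADI-PEG20 (8 called at an unadjusted p under 0.05, median 0.65) and all 12 with ADI-PEG20+CQ (10 called, median 0.75), while 10 were higher with chloroquine (2 called, median 0.18). Their summed level was 1401 to 1995 CPM in ADI-PEG20 tumors, 1637 to 2132 CPM in ADI-PEG20+CQ tumors, 1090 to 1384 CPM in CQ tumors and 1116 to 1327 CPM in untreated tumors, with none at 0. Fcgr1, the macrophage Fc receptor gene among those most like Aplnr, differed from untreated tumors by 1.194, 1.202 and 0.704 with ADI-PEG20, ADI-PEG20+CQ and chloroquine (SE 0.26 each). That likeness was taken over these same libraries, so these differences are not independent of it. All 9 T cell genes were higher with ADI-PEG20 (2 called at that level, Cd4 and Cd8a, median 1.201), and their summed level was 27.6 to 31.9 CPM in ADI-PEG20 tumors, above the 10.5 to 21.5 CPM of untreated tumors. It was 17.0 to 29.0 CPM in ADI-PEG20+CQ tumors and 15.9 to 44.0 CPM in CQ tumors. Of 6 erythroid genes all were lower with ADI-PEG20 (1 called, Hbb-bs, median -1.56), at 20.045 to 46.9 CPM in ADI-PEG20 tumors against 31.7 to 160.2 CPM in untreated tumors. Krt14 was the 1 of 6 keratinocyte genes called, higher with ADI-PEG20 (2.17, SE 0.59) and ADI-PEG20+CQ (2.91). That list had 5 higher and 1 lower with ADI-PEG20 (median 0.80), but 3 higher and 3 lower with ADI-PEG20+CQ (median -0.35). Ppbp was the 1 of 6 platelet genes called, higher in the same treatments (1.54, SE 0.71, and 2.71). The platelet list had 4 higher and 2 lower with ADI-PEG20 (median 0.25), and 5 higher and 1 lower with ADI-PEG20+CQ (median 0.66). The part of these cells in the Aplnr values was not tested.

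The 15 hypoxia response genes, which include Vegfa and Adm, were lower in 14 of 15 with ADI-PEG20 (6 called at an unadjusted p under 0.05, median -0.71), in 12 with ADI-PEG20+CQ (1 called, median -0.29) and in 14 with chloroquine (3 called, median -0.55). Those called with ADI-PEG20 were Ndrg1, P4ha1, P4ha2, Slc2a1, Kdm3a and Bnip3, with differences of -0.71 to -1.08. Their summed level was 936 to 1016 CPM in ADI-PEG20 tumors, 975 to 1638 CPM in ADI-PEG20+CQ tumors, 787 to 1366 CPM in CQ tumors and 1194 to 1998 CPM in untreated tumors. The part of hypoxia in the levels of Esm1, Flt1 or Dll4 was not tested. Of 13 pericyte and smooth muscle genes, 7 were higher and 6 lower with ADI-PEG20 (median 0.14), and 4 higher and 9 lower with ADI-PEG20+CQ (median -0.31). Rgs5, a pericyte marker, was called higher at an unadjusted p under 0.05 with ADI-PEG20 (0.74, SE 0.30) and ADI-PEG20+CQ (0.71). Des was called lower with ADI-PEG20+CQ (-1.35, SE 0.49).

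The 11 skeletal muscle genes summed to 74.0 to 2940 CPM in ADI-PEG20 tumors, 68.3 to 122 CPM in ADI-PEG20+CQ tumors, 667 to 830 CPM in CQ tumors and 68.3 to 2156 CPM in untreated tumors, with ADI-PEG20 1 and NT 1 highest. All ADI-PEG20+CQ tumors lay below all CQ tumors: 11 of 11 genes were lower against chloroquine (5 called at an unadjusted p under 0.05, median -2.80), and 11 of 11 against no treatment (2 called, median -2.17). Their part in the members' levels was not tested. In the authors' deposited table of KEGG sets, the apelin set, which holds Aplnr and Apln among 117 genes, leaned lower with a one-sided p of 0.14 with ADI-PEG20, 0.077 with ADI-PEG20+CQ and 0.20 with chloroquine (false discovery rates 0.81, 1 and 0.73). Its direction is opposite to that of Aplnr. The HIF-1 set, which holds Flt1, Tek and Angpt2 among 98 genes, leaned lower in the authors' deposited table at one-sided p-values of 0.016, 0.17 and 0.037 (false discovery rates 0.57, 1 and 0.73). The VEGF set, which holds Kdr, had one-sided p-values of 0.46, 0.41 and 0.49 in the authors' deposited table, all with false discovery rates above 0.9.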

How the data were processed

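Total RNA from frozen tumors was sequenced after ribosomal RNA depletion, per the labels' protocols. The submitters' processing notes list limma, edgeR, Salmon 0.8.2, featureCounts 1.4.6-p5, STAR 2.5.1a and bcl2fastq, with the build mm10 and no role or order. The authors deposited a merged table of log2 CPM per library, with 16386 lines and 16335 distinct genes (51 repeated lines were dropped). The deposited log2 values equal the log2 of reads with 0.5 added, over an effective library size; 100% of values under 2000 reads came back to within 0.02 of a whole read. The same deposited table gives log2 fold changes, a signed fold change that is a score, and, per comparison, a raw and an adjusted p-value. The authors' deposited KEGG tables give a p-value, a statistic that is a score, and gene counts per set.

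Differences were fitted from the deposited log2 CPM by limma 3.58.1 in R 4.3.3, using 4 group means over 12 libraries, moderated statistics with a trend, two-sided p-values and Benjamini and Hochberg adjustment over 16335 genes. Adjusted p-values in the text come from that fit unless named otherwise; the method was tested on simulated data. No gene was filtered out; the lowest gene total was 85 reads. Libraries of a group differed by far more than counting error: chi-square per degree of freedom between replicates was 24.75 to 279.3. Gene positions and exon lengths come from the GENCODE annotation of GRCm38, and CPM per kb divides by exon length. Ratios were tested with exact permutation tests and correlations with 100000 permutations. All 10 members are named; of each gene list, those with an unadjusted p under 0.05 against no treatment, or the smallest p over both chloroquine states, could be named. The members and lists were chosen with earlier results of these data known. A count model was not used, since the unit is log2; voom on recovered reads was an alternative.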

Additional observations from a re-analysis of the deposited data

Results flagged for a closer look

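The estimated effect of ADI-PEG20 on the apelin receptor gene Aplnr was 0.11 with chloroquine present and 1.23 without it. A test of the difference itself gave an interaction of -1.122 on the log2 scale (SE 0.39, unadjusted p = 0.013, limma adjusted p = 0.82). All 3 ADI-PEG20 libraries lay above all 3 untreated ones, while ADI-PEG20+CQ and CQ libraries overlapped. Of all genes, 10.1% had ADI-PEG20 and untreated values that did not overlap, in either direction. The interaction ran from -1.52 to -0.84 when each library was left out in turn and was -0.82 without NT 2 and ADI-PEG20 1. It does not pass adjustment over all genes. Aplnr was the 1 of 10 members called at an unadjusted p under 0.05 in that contrast, against 4.26% of all genes.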

How the results depend on the processing

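Of 36 results on single members, 14 turned sign under at least 1 alternative, all of them differences within the spread between libraries; the cause was not tested. With each library left out in turn, the ADI-PEG20 difference from untreated tumors ran from -0.48 to 0.061 for Apln, from -0.21 to 0.26 for Pecam1, from -0.25 to 0.20 for Cdh5 and from -0.0018 to 0.45 for Tek. For ADI-PEG20+CQ the same range was -0.45 to 0.097 for Flt1, -0.055 to 0.21 for Pecam1, -0.18 to 0.25 for Cdh5, -0.011 to 0.30 for Tek and -0.19 to 0.031 for Angpt2. For chloroquine it was -0.36 to 0.067 for Cdh5, -0.020 to 0.29 for Tek and -1.19 to 0.33 for Esm1, and for the interaction -0.52 to 0.9997 for Esm1. The positive ends for Apln, Flt1, Cdh5 and, with chloroquine, Esm1 came without NT 2, as did the negative end of the Esm1 interaction. Without NT 2 and ADI-PEG20 1 together, a choice made after seeing the data, signs turned for Flt1 (ADI-PEG20, 0.089; ADI-PEG20+CQ, 0.097), Cdh5 (ADI-PEG20, 0.31; chloroquine, 0.067), Tek (chloroquine, -0.012) and Esm1 (chloroquine, 0.33; interaction, -0.26). With the pan-endothelial mean as a term, also added after seeing the data, Pecam1 was -0.14 (ADI-PEG20) and Cdh5 -0.015 (ADI-PEG20+CQ). Against no treatment, that fit called 4 of 10 members at an unadjusted p under 0.05 with ADI-PEG20. It called 3 with ADI-PEG20+CQ and 3 with chloroquine, where the fit without the term called 1 in each comparison. Of all 16335 genes, 993, 1459 and 596 were called with the term, and 1357, 1413 and 555 (8.31%, 8.65% and 3.4%) without it. The term is a mean of endothelial genes, so it can take up spread that the members share with them. The counts of members with the term are therefore no result about the list. No member passed an adjusted p of 0.05 with the term. Voom with library weights gave 0.12 for Cdh5 (ADI-PEG20), and scaling by total reads gave 0.075 for Angpt2 (ADI-PEG20+CQ).

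Aplnr kept its sign against untreated tumors in every alternative run, and passed an adjusted p of 0.05 only without NT 3 (1.62 with ADI-PEG20 and 0.87 over both chloroquine states). Counts of all genes at an unadjusted p under 0.05 moved by over 1.5 times in these cases. Fitting only the groups compared gave 838 for ADI-PEG20 and 2060 for ADI-PEG20+CQ against chloroquine (72 with adjusted p under 0.05). For that last contrast voom with library weights gave 2252, and leaving out NT 2 and ADI-PEG20 1 gave 1900. The same omission gave 225 for ADI-PEG20+CQ against ADI-PEG20. A minimum mean log2 CPM of 1 gave 235 for chloroquine over both ADI-PEG20 states. As ranges, leaving out each library in turn gave 782 to 2195 genes with ADI-PEG20, 941 to 1924 with ADI-PEG20+CQ and 408 to 1356 with chloroquine, all against no treatment. It gave 179 to 1504 for ADI-PEG20+CQ against ADI-PEG20, 608 to 1620 for it against chloroquine, 374 to 1399 for the interaction, and 240 to 734 for chloroquine over both ADI-PEG20 states; 1177 to 2224 for ADI-PEG20 over both chloroquine states stayed within 1.5 times. Over both chloroquine states, ADI-PEG20 gave 47 genes of adjusted p under 0.05 with library weights and 144 without NT 2 and ADI-PEG20 1, none of them a member.

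Of 18 same-numbered pairs of libraries, 11 and not all had deviations correlated above 0.1 (r from -0.16 to 0.28), so the numbers were not used as pairs. That 9 of 12 libraries correlated best with their own number is a hint from the data and not the design. With the replicate block, Aplnr stayed at 1.23 with ADI-PEG20 (adjusted p = 0.16), and 2 members joined at an unadjusted p under 0.05, Kdr with ADI-PEG20 (0.36, unadjusted p = 0.040, limma adjusted p = 0.48) and Flt1 with chloroquine (-0.56, unadjusted p = 0.032, limma adjusted p = 0.9985). Counts at an unadjusted p under 0.05 were then 1601, 1669 and 792 for ADI-PEG20, ADI-PEG20+CQ and chloroquine against no treatment, and adjustment was passed by 31 genes for ADI-PEG20 over both chloroquine states and 8 for ADI-PEG20+CQ against no treatment, none of them a member. With 3 libraries a group, only differences well above their SE can be called.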
